A study of Rattus norvegicus with 15 samples.

Results

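Fragments of the serine transfer RNAs with the anticodons AGA, CGA and TGA were described in the left ventricle of Sprague-Dawley rats. Members were chosen by name, as every tRNA-derived fragment (tRF) listed for serine except those of the anticodon GCT. This gave 32 of the 714 tRNA-derived small RNAs (tsRNAs) listed, with 13 from Ser-AGA, 5 from Ser-CGA and 14 from Ser-TGA. No measured value entered the naming rule, but the rule was chosen with earlier results of these data known. No member was a tiRNA, the class of longer products cleaved in the anticodon loop: the single serine tiRNA listed came from Ser-GCT.

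The control group held 5 untreated rats. The isoproterenol group held 5 rats with myocardial ischemia induced by isoproterenol, a drug that stimulates beta-adrenergic receptors and strains the heart. The restricted group held 5 rats that were put on caloric restriction before isoproterenol. The labels give neither dose, timing, age nor sex. All groups were of the same strain, and each library came from a separately numbered rat. No group was restricted without the drug, so restriction itself and a changed response to the drug cannot be told apart. The table held tRNA fragments alone, so the labelled tissue could not be set against marker genes.

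Serine is read by several tRNAs. Those with the anticodons AGA, CGA and TGA decode the UCN codons, and the tRNA with GCT decodes AGU and AGC. The nuclear serine tRNAs, like the nuclear tRNAs of leucine, carry a long variable arm. Cleavage of a tRNA by nucleases such as angiogenin leaves fragments that can persist in the cell and have been linked to stress. The nuclear Ser-AGA, Ser-CGA and Ser-TGA tRNAs are close in sequence, so a short read can match more than 1 of them, and no source used here says how such reads were given an anticodon. Each single fragment is therefore uncertain as to its tRNA of origin. A serine tRNA with the TGA anticodon is also encoded in the mitochondrial genome, and the names do not separate it from the nuclear tRNA. RefSeq (assembly GRCr8) names 52 rat tRNA genes for serine AGA, 3 for CGA, 4 for UGA and 8 for GCU. No fragment sequence, length or position within the tRNA was used here.

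The values deposited were CPM, that is reads scaled to a common library total. The totals recovered from the CPM steps were 106082 to 1128887 reads, which makes a single read equal to 0.886 to 9.43 CPM. All 32 members together held 195 to 990 reads per library, and many values for single members rest on fewer than 10 reads. Of each library total, the tsRNAs in the table took 28.6% ± 4.77 (SD, n = 5) in control, 61.6% ± 13.6 in isoproterenol and 50.4% ± 13.6 in restricted libraries. The largest total belonged to control replicate 4. Its member reads (221) lay within the 195 to 265 of the controls, but its summed CPM (196) was the lowest of any library. In 16 of the 32 members this library alone had the lowest control CPM. The median tsRNA had 4 to 9 reads in every library, although totals ran from 269508 to 1128887 reads in control, 106082 to 514565 in isoproterenol and 163818 to 397574 in restricted libraries. The CPM of a typical tsRNA was therefore lower where the total was larger, and whether reads were limited or collapsed before counting was not tested. Every CPM level and fold change here carries this limit, and results with other scalings and without control replicate 4 are given beside the main ones.

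Among the 3 anticodons Ser-AGA had the highest summed level in every library. Its 13 fragments summed to 391 ± 203 CPM in control (n = 5), against 76.9 ± 39.6 CPM for the 5 fragments of Ser-CGA and 135 ± 36.9 CPM for the 14 of Ser-TGA. In control libraries, replicates 1 to 5, the Ser-AGA sum was 454, 309, 642, 96.6 and 456 CPM. In isoproterenol libraries it was 735, 1633, 2941, 803 and 799 CPM, and in restricted libraries 2368, 835, 2923, 1932 and 1668 CPM. Both treated groups lay above every control.

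The Ser-CGA sum was 95.2, 70.7, 119, 13.3 and 86.5 CPM in control and 200.4, 531, 1131, 313 and 268 CPM in isoproterenol libraries. It was 787.5, 244, 1058, 496 and 616 CPM in restricted libraries. Here too the controls did not overlap either treated group. The Ser-TGA sum was 165, 106, 167, 85.9 and 152 CPM in control, 278, 445, 509, 216 and 414 CPM in isoproterenol and 531, 211, 477, 344 and 324 CPM in restricted libraries. Controls again lay below all other libraries.

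Single fragments covered a wide range. Averaged over the 15 libraries, the most abundant were tRF-Ser-AGA-027 (274 CPM), tRF-Ser-AGA-003 (262 CPM) and tRF-Ser-AGA-028 (240.2 CPM). Ser-CGA was led by tRF-Ser-CGA-014 (147 CPM), tRF-Ser-CGA-015 (121 CPM) and tRF-Ser-CGA-001 (76.6 CPM). Ser-TGA had no fragment above 90.4 CPM, the mean of tRF-Ser-TGA-004, which was followed by tRF-Ser-TGA-039 (53.1 CPM) and tRF-Ser-TGA-010 (22.1 CPM). The least abundant member was tRF-Ser-TGA-019, at 4.04 CPM and 16 reads in all. A read counts once whatever the length of the fragment, so these levels need no correction for length.

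The first comparison, of ischemic with untreated ventricles, showed a general rise. The summed level of each of the 3 anticodons was higher, in the order CGA, AGA, TGA. Fold changes were tested with limma on log2(CPM + 1), a scale on which low fragments depend on the added 1, with Benjamini-Hochberg adjustment over all features of the table and adjusted p under 0.05 as the threshold. Over the summed levels of all 46 isoacceptors, Ser-CGA rose by 2.66 on the log2 scale (SE 0.58, limma adjusted p = 0.000394). Ser-AGA rose by 1.83 (SE 0.51, limma adjusted p = 0.00226) and Ser-TGA by 1.43 (SE 0.45, limma adjusted p = 0.00596). Rises were common, with 29 of the 46 isoacceptors called higher (63%) and a median log2 fold change of 1.43. Ser-CGA ranked 6, Ser-AGA 16 and Ser-TGA 23 of 46, so that Ser-TGA lay at the typical value. In these bulk samples, fewer cells of a type and less RNA per cell cannot be told apart.

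The scaling bears on these 3 results unequally. After median-of-ratios scaling, which takes the typical tsRNA as unchanged, Ser-CGA was still called (1.43, limma adjusted p = 0.000531), as was Ser-AGA at a smaller value (0.58, limma adjusted p = 0.0376). Ser-TGA was at 0.20 and did not pass (limma adjusted p = 0.656). With equal listed totals, where all tsRNAs of a library sum to a common value, none of the 3 passed in limma: Ser-CGA was at 1.58 (adjusted p = 0.0619), Ser-AGA at 0.74 (0.346) and Ser-TGA at 0.35 (0.699). Without control replicate 4 all 3 were called, at 2.12, 1.39 and 1.29.

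Of the 32 members, 15 rose with isoproterenol and 0 fell in limma (46.9% higher), against 35.5% of all tsRNAs called higher and 12.4% called lower. At an unadjusted p under 0.05 there were 18 higher and 0 lower, against 303 and 99 of all 707 tsRNAs. The members had a median log2 fold change of 1.69, beside 1.26 over all 707 tsRNAs tested. Rises were counted in 6 of 13 Ser-AGA, 4 of 5 Ser-CGA and 5 of 14 Ser-TGA fragments. Their medians were 1.81, 2.94 and 0.89. With median-of-ratios scaling, which puts the median of all tsRNAs at 0.15, 8 members were higher and 0 lower (16.1% of all tsRNAs higher, 19.7% lower). These 8 were 4 Ser-AGA and 4 Ser-CGA fragments, and 0 of the Ser-TGA fragments passed. edgeR called 13 of the 16 members it tested (53.6% of all 347 it tested were higher). Its filter left 10 Ser-AGA, 4 Ser-CGA and 2 Ser-TGA members. tRF-Ser-AGA-001, tRF-Ser-AGA-012 and tRF-Ser-CGA-016 were at most at 9.43 CPM in any control. tRF-Ser-AGA-018, tRF-Ser-AGA-020 and tRF-Ser-AGA-023 were at most at 28.8 CPM in any control. All of these passed that filter through their treated libraries. The other members it kept passed partly through treated libraries, so the edgeR calls are no separate support. Without control replicate 4 limma called 12 members, a fit for which the share of all tsRNAs was not counted.

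The largest rise was that of tRF-Ser-CGA-016. It was at 7.32, 9.43, 3.71, 0 and 2.62 CPM in control and at 25.98, 109, 141, 42.6 and 50.5 CPM in isoproterenol libraries. Every treated library lay above every control, although the controls held only 8 reads in all. The difference was 3.86 (SE 0.72, limma adjusted p = 3.08e-05), 2.60 above the median of all tsRNAs. It remained called with median-of-ratios scaling (3.18, limma adjusted p = 0.000595). edgeR on the recovered reads gave 4.01 (edgeR adjusted p = 3.35e-05), in a test whose filter the fragment passed through treated libraries.

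tRF-Ser-AGA-001 was at 7.32, 2.36, 3.71, 3.54 and 0 CPM in control and at 14.8, 39.1, 141, 30.4 and 35.0 CPM in isoproterenol libraries. The groups did not overlap, and replicate 3 was far above the other treated libraries. It rose by 3.48 (SE 0.75, limma adjusted p = 0.000215), and 2.47 with median-of-ratios scaling (limma adjusted p = 0.00888). tRF-Ser-CGA-015, with more reads, was at 7.32, 18.9, 37.1, 4.43 and 21.0 CPM in control and 48.3, 141, 311, 125 and 124 CPM in isoproterenol libraries. It rose by 3.10 (SE 0.63, limma adjusted p = 0.000104), without overlap, and by 1.92 with median-of-ratios scaling (limma adjusted p = 0.0027).

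tRF-Ser-CGA-006 (16.8 against 1.58 CPM, log2 fold change 2.94) and tRF-Ser-AGA-029 (33.9 against 4.97 CPM, 2.93) were next in size, without overlap but on 5 and 9 control reads. Both passed with median-of-ratios scaling (limma adjusted p = 0.047 and 0.0342). DESeq2 did not call either (1.32 and 1.63, DESeq2 adjusted p = 0.279 and 0.0608). A rise of 2.70 was found for tRF-Ser-CGA-014 (limma adjusted p = 0.00109), whose mean was 24.4 ± 18.4 CPM in control and 162 ± 152 CPM after isoproterenol, with overlap between the groups. tRF-Ser-AGA-013, at 25.6 ± 14.4 and 130.2 ± 101.5 CPM, rose by 2.27 (limma adjusted p = 0.00253), a call that was lost at 1.08 with median-of-ratios scaling (limma adjusted p = 0.0553).

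The 3 most abundant members gave unlike results. tRF-Ser-AGA-027 was at 84.2, 58.9, 155.8, 10.6 and 73.4 CPM in control and 155.9, 422, 669, 189 and 171 CPM in isoproterenol libraries, so that the groups did not overlap but lay next to each other at control replicate 3 and isoproterenol replicate 1. It rose by 2.21 (SE 0.63, limma adjusted p = 0.00401), and was at 0.99 with median-of-ratios scaling, which did not pass (limma adjusted p = 0.0755). tRF-Ser-AGA-028 rose by 2.34 (SE 0.64, limma adjusted p = 0.00247) and was called at 1.12 with that scaling (limma adjusted p = 0.0447). It was not called with equal listed totals (1.27, limma adjusted p = 0.168) or by DESeq2 (1.00, DESeq2 adjusted p = 0.0568). tRF-Ser-AGA-003 did not pass in limma, at 289.9 ± 222 against 113 ± 58.6 CPM (1.25, limma adjusted p = 0.0664). It did pass without control replicate 3, isoproterenol replicate 4 or isoproterenol replicate 5 (1.47 to 1.51), and its value was 0.02 with median-of-ratios scaling.

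Other abundant members sat close to the threshold. tRF-Ser-CGA-001 was at 86.2 ± 82.3 against 28.5 ± 15.9 CPM (1.38, limma adjusted p = 0.0878) and passed without isoproterenol replicate 5 (1.89, limma adjusted p = 0.0171). tRF-Ser-TGA-004 was called at 1.54 (SE 0.66, limma adjusted p = 0.04995). That call was lost on leaving out any of 11 of the 15 libraries, with values from 1.01, without control replicate 4, to 1.63, without control replicate 3. These were control replicates 2 to 4, isoproterenol replicates 1 to 3 and all 5 restricted libraries, the last through the shared estimate of the spread. tRF-Ser-TGA-010 rose by 2.59 (SE 0.75, limma adjusted p = 0.00457), without overlap, on 9 control and 28 isoproterenol reads. The smallest p on the lower side was that of tRF-Ser-AGA-016, at 5.51 ± 6.39 against 10.4 ± 1.75 CPM (-1.56, limma adjusted p = 0.159). With the listed total made equal it was called lower (-2.42, limma adjusted p = 0.0385).

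The restricted group was also compared with control, which shares the control libraries with the comparison above. Of the 32 members, 22 rose and 0 fell (68.8% higher), against 47.7% of all tsRNAs called higher and 10.7% lower. At an unadjusted p under 0.05 there were also 22 higher and 0 lower, against 361 and 90 of all 707 tsRNAs. The median log2 fold change of the members was 2.26, beside 1.60 over all tsRNAs. All 5 Ser-CGA fragments and 12 of 13 Ser-AGA fragments rose, with medians of 3.43 and 2.54. Ser-TGA had 5 of 14 higher and a median of 1.19. With median-of-ratios scaling 7 members were higher and 2 lower (15.1% and 20.7% of all tsRNAs), beside a median of 0.24 over all tsRNAs. Those lower were tRF-Ser-TGA-039 and tRF-Ser-TGA-040. edgeR called 15 of the same 16 members (61.1% of all 347 were higher). Its filter kept them partly or wholly through treated libraries, so these calls are no separate support either. Without control replicate 4 limma called 19, and the share of all tsRNAs in that fit was not counted.

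As summed levels, Ser-CGA rose by 3.18 (SE 0.58, limma adjusted p = 6.44e-05) and ranked 3 of 46 isoacceptors. Ser-AGA rose by 2.44 (SE 0.51, limma adjusted p = 0.00016), rank 15, and Ser-TGA by 1.45 (SE 0.45, limma adjusted p = 0.00446), rank 29, below the median of 1.99. Here 35 of the 46 isoacceptors were called higher (76.1%). With median-of-ratios scaling Ser-CGA and Ser-AGA were still called, at 1.58 and 0.81 (limma adjusted p = 0.000207 and 0.00631), while Ser-TGA turned to -0.17 and did not pass (limma adjusted p = 0.615). Without control replicate 4 the 3 sums were called at 2.64, 1.99 and 1.30.

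The largest rise in restricted ventricles was that of tRF-Ser-AGA-012, at 7.32, 4.71, 0, 0.886 and 2.62 CPM in control and 36.6, 37.7, 72.1, 76.0 and 22.5 CPM in restricted libraries. The groups did not overlap and the difference was 3.84 (SE 0.85, limma adjusted p = 0.000319). The controls held 6 reads. With isoproterenol alone this fragment had values from 0 to 47.1 CPM and did not pass (1.81, limma adjusted p = 0.0721), except without control replicate 1, isoproterenol replicate 1 or isoproterenol replicate 2 (2.12 to 2.68).

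tRF-Ser-AGA-013 was at 43.9, 25.9, 22.3, 4.43 and 31.4 CPM in control and rose to 305, 252, 441, 340.2 and 207 CPM in restricted libraries. The rise was 3.78 (SE 0.62, limma adjusted p = 4.13e-06), and the lowest restricted library lay far above the highest control. It held in each scaling, at 2.22 with median-of-ratios scaling (limma adjusted p = 0.000336) and 3.03 with equal listed totals (limma adjusted p = 0.000329).

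tRF-Ser-AGA-001 rose by 3.66 (SE 0.75, limma adjusted p = 0.000136), from 3.39 ± 2.65 to 60.7 ± 49.9 CPM. tRF-Ser-CGA-014 rose by 3.65 (SE 0.68, limma adjusted p = 3.26e-05), with restricted libraries at 299, 95.6, 410, 159 and 306 CPM. tRF-Ser-CGA-015 rose by 3.53 (SE 0.63, limma adjusted p = 1.94e-05), with 195, 75.5, 365, 145 and 193 CPM. In each of these 3 the restricted group lay wholly above control, and each remained called with median-of-ratios scaling (2.28, 2.12 and 1.98). Restricted replicate 2, the largest total of its group, had the lowest value in each of them.

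tRF-Ser-CGA-016 and tRF-Ser-CGA-006 rose by 3.43 and 3.27, tRF-Ser-CGA-001 by 2.17 and tRF-Ser-TGA-004 by 2.56. tRF-Ser-AGA-027, tRF-Ser-AGA-028 and tRF-Ser-AGA-003 rose by 2.54, 2.31 and 1.93, and none of the 3 passed with median-of-ratios scaling (0.94, 0.72 and 0.31). The same scaling ended the calls of tRF-Ser-CGA-001 (0.62, limma adjusted p = 0.281) and tRF-Ser-TGA-004 (1.00, 0.0719), and kept those of tRF-Ser-CGA-016 (2.39) and tRF-Ser-CGA-006 (2.14). tRF-Ser-TGA-010 rose by 2.95 and tRF-Ser-AGA-029 by 2.28, and neither passed with median-of-ratios scaling (1.61 and 0.98, limma adjusted p = 0.0647 and 0.279). tRF-Ser-AGA-029 was also not called without control replicate 1 (1.79, limma adjusted p = 0.0544). In 16 members the restricted group did not overlap control on the higher side (31.1% of all tsRNAs did so), and in 0 on the lower side (9.19%). For isoproterenol against control the counts were 12 higher (19%) and 0 lower (8.49%).

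The restricted and isoproterenol groups were compared to ask what prior restriction changed. None of the 32 members passed in limma (0% of all 707 tsRNAs called). At an unadjusted p under 0.05 there were 5 members higher and 2 lower, against 78 and 38 of all 707 tsRNAs. edgeR called 0 of the 16 members it tested (0.288% of all lower, 0% higher), with 1 at an unadjusted p under 0.05, beside 49 of all 347. DESeq2, which gave an adjusted p to 19 members, called tRF-Ser-TGA-037 lower (-1.59, DESeq2 adjusted p = 0.0409), where it called 4.06% of all tsRNAs lower and 0.84% higher. The groups did not overlap in 1 member on the higher side (0.99% of all) and 0 on the lower side (0.707%). The summed levels differed by 0.61 for Ser-AGA (SE 0.51, limma adjusted p = 0.43), 0.52 for Ser-CGA (SE 0.58, 0.542) and 0.02 for Ser-TGA (SE 0.45, 0.972). These errors leave room for differences of either sign.

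The smallest p on the higher side belonged to tRF-Ser-TGA-022. It was at 0, 7.81, 9.43, 9.13 and 7.77 CPM in isoproterenol and 24.4, 17.6, 45.0, 14.5 and 31.5 CPM in restricted libraries. The groups did not overlap, on 9 and 32 reads, and the difference of 2.08 did not pass (SE 0.82, limma adjusted p = 0.237). Against control, where it was at 5.665 ± 3.80 CPM, the restricted level was higher by 2.31 (limma adjusted p = 0.0142), a call lost without control replicate 4 (1.72, limma adjusted p = 0.0783). That call was also lost with median-of-ratios scaling (1.27, limma adjusted p = 0.215) and equal listed totals (1.77, limma adjusted p = 0.0933). DESeq2 did not make it either (0.86, DESeq2 adjusted p = 0.338).

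The smallest p on the lower side belonged to tRF-Ser-TGA-038, at 22.3, 39.1, 28.3, 15.2 and 44.7 CPM in isoproterenol and 24.4, 0, 13.5, 0 and 22.5 CPM in restricted libraries. The difference of -2.24 did not pass (SE 0.85, limma adjusted p = 0.23). Against control (6.57 ± 3.95 CPM) this fragment had risen with isoproterenol alone (2.10, limma adjusted p = 0.0369), a call lost without control replicate 2, 3 or 4 or isoproterenol replicate 2, 3 or 5 (1.85 to 2.10). In restricted ventricles it was at -0.13 against control, which did not pass (limma adjusted p = 0.909). With the log2 library total in the model, tRF-Ser-AGA-013 and tRF-Ser-AGA-014 were called higher in restricted than in isoproterenol ventricles (1.60 and 1.40, limma adjusted p = 0.0377 and 0.0291), where 5.23% of all tsRNAs were called higher.

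Ser-TGA held fragments of unlike behaviour. The 6 with the serial numbers 036 to 041 were set beside the other 8 after their values had been seen, so the contrast is described without a test. The first 6 summed to 95.2, 37.7, 77.9, 77.1 and 78.6 CPM in control and to 148.5, 187.5, 170, 131 and 342 CPM in isoproterenol libraries. In restricted libraries they summed to 146.5, 42.8, 67.6, 61.5 and 112 CPM. Isoproterenol libraries lay above all controls, and restricted libraries ran from within the control range to above it.

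The other 8 Ser-TGA fragments summed to 69.55, 68.4, 89.05, 8.86 and 73.4 CPM in control. They were at 130, 258, 339, 85.2 and 71.9 CPM in isoproterenol and at 385, 169, 410, 282 and 211 CPM in restricted libraries, where every value lay above all controls. Fragments 036 to 041 made up 56.3% ± 20.4 of the Ser-TGA sum in control, 54.4% ± 18.9 in isoproterenol and 22.9% ± 8.22 in restricted libraries (n = 5 each). The restricted shares ran from 14.2% to 34.7%, and the lowest share elsewhere was 33.3%, in isoproterenol replicate 3. A share within a library does not depend on the library total as divisor, but the share of 036 to 041 was not free of depth. In isoproterenol libraries it rose with the total, from 33.3% at 106082 reads to 82.6% at 514565 reads. Control replicate 4, the largest total, had 89.7%, and the other controls 35.6% to 57.8%. In restricted libraries the share was 27.6% at the smallest total and 20.2% at the largest. Whether depth shaped the difference between the groups was not tested.

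Single members of both blocks are given next. Against isoproterenol, the restricted value was higher in 8 of 8 of the other Ser-TGA fragments (log2 differences 0.22 to 2.09) and in 1 of 6 among 036 to 041 (-2.24 to 0.45), with 0 of these passing in limma. Of all 707 tsRNAs, 468 were higher in this comparison, with a median log2 difference of 0.44. Several of the 8 rest on few reads, such as tRF-Ser-TGA-019 with 3 in isoproterenol and 10 in restricted libraries. tRF-Ser-TGA-039, the most abundant of the block, was at 47.6, 16.5, 44.5, 33.7 and 41.9 CPM in control and 78.0, 78.1, 37.7, 48.7 and 163 CPM in isoproterenol libraries. It was at 73.3, 15.1, 31.5, 29.0 and 58.5 CPM in restricted libraries. Neither treated group differed from control in limma (1.02 and 0.05, limma adjusted p = 0.165 and 0.945), while with median-of-ratios scaling the restricted group was called lower (-1.53, limma adjusted p = 0.0429).

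tRF-Ser-TGA-041 had the smallest p on the lower side for restricted against control, at 3.85 ± 2.33 against 7.70 ± 3.45 CPM (-1.01, limma adjusted p = 0.347). With isoproterenol it was at 0 in replicates 1 to 3 and at 9.13 and 21.4 CPM in replicates 4 and 5, and it was called lower without isoproterenol replicate 5 (-2.19, limma adjusted p = 0.0433). DESeq2 called it lower in restricted ventricles (-3.06, DESeq2 adjusted p = 0.0246). The block also stood apart in depth. Control replicate 4 had 87 reads of fragments 036 to 041, against 16 to 30 in the other controls, and 10 reads of the other 8, against 19 to 29. It was the lowest control by CPM in 0 of the 6 and in 16 of the 26 remaining members.

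Ratios between the anticodons within a library leave the library total out as divisor, but can still vary with it. The Ser-CGA sum was 0.21, 0.229, 0.185, 0.138 and 0.19 times the Ser-AGA sum in control libraries. It was 0.273, 0.325, 0.385, 0.39 and 0.336 times that sum in isoproterenol and 0.3325, 0.292, 0.362, 0.257 and 0.369 times in restricted libraries. Every treated library lay above every control, and the treated groups overlapped. This gain of Ser-CGA over Ser-AGA comes from the same sums as their fold changes, so it is no separate result. No test was made of it.

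Shares of the anticodons were also compared without a test. Ser-AGA made up 62.3% ± 7.59 of the summed CPM of the 3 anticodons in control, 60.3% ± 3.90 in isoproterenol and 65.6% ± 2.36 in restricted libraries. Ser-CGA made up 12.0% ± 3.01, 20.6% ± 3.47 and 21.1% ± 2.67. Ser-TGA made up 25.7% ± 10.3, 19.1% ± 6.51 and 13.3% ± 2.18, with ranges of 18.0% to 43.9%, 11.1% to 27.95% and 10.7% to 16.4%. The highest share was that of control replicate 4. Without it the control mean was 21.2% ± 2.21 (n = 4), so that most of the gap to isoproterenol rests on this library, and the isoproterenol range spanned the controls. The restricted range lay wholly below the controls with and without it. The ratio of Ser-CGA to Ser-TGA was 0.155 to 0.711 in control, 0.648 to 2.22 in isoproterenol and 1.15 to 2.22 in restricted libraries, so that control overlapped isoproterenol but not the restricted group. The lowest ratio of each group, 0.155, 0.648 and 1.15, belonged to its library with the largest total. Whether depth shaped these ratios was not tested.

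The order CGA, AGA, TGA of the fold changes of the sums held in 24 of 25 fits for isoproterenol against control and in 25 of 25 for restricted against control. The fits comprise the main one and 24 alternatives, among them the 15 that leave out a library. Some could not differ from the main fit in fold change, so the counts overstate how well the order held. These left out a library of the third group, used only the groups compared or added the replicate block. The exception was the fit with the log2 library total, where Ser-TGA (1.04) lay above Ser-AGA (0.92). For restricted against isoproterenol the order held in 0 of 25.

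Fragments of Ser-GCT went the other way as a sum. The 18 Ser-GCT tRFs were at 6211 ± 1761 CPM in control, 1129 ± 714 in isoproterenol and 1857 ± 336 in restricted libraries, and their sum fell in both (-2.66 and -1.72, limma adjusted p = 6.48e-06 and 0.000567), ranking 45 and 42 of 46. Against control, 6 rose and 7 fell with isoproterenol alone, and 7 rose and 7 fell with restriction plus isoproterenol. Of the 48 tRFs of leucine, whose nuclear tRNAs share the long variable arm, 10 rose and 7 fell with isoproterenol alone. With restriction plus isoproterenol 26 rose and 9 fell, also against control, and the medians were 1.15 and 2.08. With median-of-ratios scaling the balance turned for leucine, to 4 higher and 12 lower with isoproterenol alone and 10 and 13 with restriction plus isoproterenol. Ser-GCT had 4 higher and 7 lower in both. The single serine tiRNA fell in both (-4.22 and -3.13). Among the 32 members 0 fell in limma in either comparison, while other scalings called single members lower, as given above.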

How the data were processed

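Small RNA libraries were made from left ventricle RNA of 15 rats after pretreatment with a kit that removes interfering RNA modifications, and gel selection kept products of 134 to 160 bp, which hold RNAs of 14 to 40 nt, per the labels' protocols. The submitters' processing notes name cutadapt and edgeR but say nothing of their versions. No source used here names the aligner, the tRNA reference or the build. The authors deposited CPM, 1 column per rat. All values (100%) were whole multiples of 1 read within 0.001 reads, which gave back reads and library totals. The median tsRNA had 4 to 9 reads whatever the total, so that its CPM fell with the total, and whether reads were limited before counting was not tested. Reads amplified without molecular identifiers are not independent molecules.

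limma (eBayes with trend) was fitted on log2(CPM + 1) to the 707 tsRNAs that reached 1 CPM in 5 or more libraries (all 32 members did), with 3 groups in 1 model, two-sided. The summed tRF levels of 46 isoacceptors were fitted alike. edgeR's quasi-likelihood test on the recovered reads was left 347 tsRNAs by its filter. Against control it called 186 higher and 50 lower after isoproterenol alone, and 212 and 49 after restriction plus isoproterenol. Between the treated groups it called 0 and 1. The limma script was tested on simulated reads that grew with the library total, unlike those of the median tsRNA here. That test therefore checks the script and not the calls in these data. The software was DESeq2 1.42.0, edgeR 4.0.16 and limma 3.58.1 under R 4.3.3. Alternatives changed pseudocount (0.5, 5), filter, scaling, test, groups fitted, replicate block, total as covariate and each library. Named are the 3 most abundant tRFs per anticodon, up to 5 per direction that passed with the largest change, and otherwise the smallest p, and a few chosen after their values were seen (tRF-Ser-TGA-037 and 040, tRF-Ser-AGA-014 and the blocks of Ser-TGA). Members, lists and rules were chosen with earlier results of these data known.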

Additional observations from a re-analysis of the deposited data

Results flagged for a closer look

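Among 66 sets of 5 libraries (19 named fragments and 3 anticodon sums, each in 3 groups), 3 held a library far from the other 4, where chance gives about 1 in 20. tRF-Ser-AGA-001 was at 141 CPM in isoproterenol replicate 3 and at 14.8 to 39.1 CPM in the other isoproterenol libraries. tRF-Ser-AGA-016 was at 58.5 CPM in restricted replicate 5 and at 0 to 10.1 CPM in the others. tRF-Ser-TGA-022 was at 0 CPM in isoproterenol replicate 1 and at 7.77 to 9.43 CPM in the others, where the values rest on 1 to 4 reads.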

How the results depend on the processing

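Scaling and counting had the largest effect. For isoproterenol against control, 15 members were called, against 8 with median-of-ratios scaling, 5 with equal listed totals (4 higher, 1 lower) and 6 by DESeq2. The shares called higher in the last 2 were 12.5% and 18.75% of members, near the 14.0% and 16.0% of all tsRNAs. The Ser-TGA sum did not pass at 0.20, 0.35 and 0.18 under these, Ser-AGA at 0.74 and Ser-CGA at 1.58 with equal listed totals, nor Ser-AGA at 0.50 by DESeq2. For restricted against control, 22 became 9 (7 higher, 2 lower), 12 (12, 0) and 11 (8, 3), with 37.5% and 25% of members higher in the last 2 beside 28.0% and 15.8% of all tsRNAs, and the Ser-TGA sum was at -0.17, 0.67 and -0.33. For restricted against isoproterenol, 0 became 1 by DESeq2 and 2 with the log2 total (6.25% of members, 5.23% of all tsRNAs higher), where Ser-AGA passed (0.71), and the Ser-TGA sum turned to -0.36 with median-of-ratios scaling and -0.51 by DESeq2. The cause was not tested. Leaving out 1 library gave 12 to 18, 0 to 0 and 19 to 23 calls for isoproterenol against control, restricted against isoproterenol and restricted against control, and -0.16 to 0.21 for the Ser-TGA sum of restricted against isoproterenol. The shares of all tsRNAs called in the fits without 1 library were not counted.

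Among named fragments, signs turned only where limma had made no call. For isoproterenol against control, tRF-Ser-TGA-022 was at -0.40 with median-of-ratios scaling, -0.46 with equal listed totals, -0.55 by DESeq2 and -0.41 with the log2 total, and tRF-Ser-TGA-039 at -0.19 and -0.048 under the first 2. For restricted against isoproterenol, median-of-ratios scaling gave -0.18 for tRF-Ser-AGA-001, -0.046 for tRF-Ser-AGA-027, -0.0066 for tRF-Ser-TGA-010 and -0.078 for tRF-Ser-TGA-041. tRF-Ser-AGA-028 was at 0.27 with equal listed totals, 0.074 by edgeR and 0.11 with the log2 total, tRF-Ser-AGA-001 at -0.080 by DESeq2 and tRF-Ser-TGA-041 at -0.00607 with pseudocount 5 and, with no adjusted p, at -1.74 by DESeq2 against 0.45 in limma. Of the fragments named after their values were seen, tRF-Ser-AGA-014 turned from 0.37 to -0.84, -0.69 and -0.82 and tRF-Ser-TGA-040 from 0.77 to -0.39, -0.26 and -0.38 with median-of-ratios scaling, equal listed totals and DESeq2 (isoproterenol against control). tRF-Ser-TGA-037 turned from 1.16 to -0.33 and -0.46 with the first and last of these (restricted against control). For restricted against control, tRF-Ser-TGA-038 was at 0.24 with pseudocount 5, and tRF-Ser-TGA-039 at -1.53, -0.71 and -1.76 with median-of-ratios scaling, equal listed totals and DESeq2.

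Leaving out 1 library gave -0.36 to 0.88 for tRF-Ser-TGA-022 (isoproterenol against control). For restricted against isoproterenol it gave -0.21 to 0.64 for tRF-Ser-AGA-001, -0.31 to 0.49 for tRF-Ser-AGA-028 and -0.30 to 1.17 for tRF-Ser-AGA-016. For restricted against control it gave -0.65 to 0.52 for tRF-Ser-TGA-038 and -0.20 to 0.35 for tRF-Ser-TGA-039.

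No pairing by replicate number was seen: deviations of same-numbered libraries correlated at -0.119 to 0.253, above 0.1 in 1 of 15 pairs. Differently numbered libraries of unlike groups correlated at -0.338 to 0.264. With so few reads per tsRNA, these values cannot exclude a pairing. With the replicate block, 15, 0 and 22 members were called, each of them higher (isoproterenol against control, restricted against isoproterenol, restricted against control). Of all tsRNAs 36.1%, 0% and 48.5% were called higher in that fit. The median tsRNA had 4 to 9 reads in every library, which limits what can be called among the rarer members.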

Other observations

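tRF-Ser-AGA-027 and tRF-Ser-AGA-028 ran side by side, a pair chosen after their values were seen. The ratio of 028 to 027 was 0.68 to 1.25 in control, 0.958 to 1.07 in isoproterenol and 0.69 to 1.01 in restricted libraries. In isoproterenol libraries, replicates 1 to 5, they held 42, 54, 71, 62 and 88 reads of 027 and 45, 53, 68, 64 and 87 reads of 028. Their sequences were not used here, so whether they are near copies of each other was not tested.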
